A study of Mus musculus with 20 samples.

Results

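Trimethylation of lysine 27 on histone H3 (H3K27me3) is laid down by Polycomb repressive complex 2 (PRC2) and removed by the KDM6 demethylases, and the transcripts of both sides were followed here in cultured mouse cerebellar granule neurons. The set is 10 genes, picked by name and not by their values: the 2 demethylases Kdm6b and Kdm6a, and 8 PRC2 genes, namely the methyltransferases Ezh1 and Ezh2, the core subunits Eed and Suz12, and the accessory subunits Jarid2, Aebp2, Mtf2 and Phf19. All 10 were found by symbol among the 24411 genes of the deposited table, and all 10 passed the low-count filter that left 15284 genes for testing.

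Cells came from mouse cerebellar granule neuron cultures, 20 libraries in 4 groups of 5, numbered 1 to 5 within each group by the labels. Control cultures carry no further description, including what virus they received. The shKdm6b cultures received a short hairpin RNA against mouse Kdm6b. The active rescue and dead rescue cultures received that same hairpin together with the enzymatic domain of human KDM6B, working in one and inactivated in the other. Infection was on day 1 in culture, AraC, a drug that kills dividing cells, was added on day 2, and RNA was taken on day 7. Strain, sex of the pups, animals per culture and hairpin sequence are not stated in what was used here. No label says that libraries of a group came from separate cultures. Levels of sex-linked genes and of cell type markers differed by number, as given below. The p-values speak only of the spread from library to library, and how much of it is technical was not tested. RNA was measured from whole cultures, so fewer cells of a type and less RNA per cell cannot be told apart.

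PRC2 is built on EED, SUZ12 and one of a pair of interchangeable catalytic subunits. EZH2 is the catalytic subunit of dividing cells and is a known target of the E2F factors that drive the cell cycle, whereas EZH1 is the form typical of non-dividing cells, neurons among them. Accessory subunits sort the complex into variants: JARID2 and AEBP2 belong to one, and the Polycomb-like proteins MTF2 and PHF19 to another, and both kinds help PRC2 find CpG-rich DNA. KDM6B and KDM6A oppose the complex. KDM6B is inducible and has been tied to neuronal maturation. KDM6A works within the MLL3/MLL4 COMPASS complexes, lies on the X chromosome and escapes X inactivation, and has a paralogue on the Y chromosome, UTY.

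Promoters of the 2 methyltransferase genes and of Phf19 are shown first, because their levels parted in the number 4 libraries described further on: in all 4 groups Phf19 was highest and Ezh1 lowest there, and Ezh2 lay above its mean over the other numbers. These genes were picked by those values, and other members, among them Kdm6a and Jarid2, departed further there than Ezh1. Each sequence shown is the RefSeq promoter on GRCm38.p6 from 250 bases before the start site to 20 after it, read 5′ to 3′ on the strand of the gene, with motif matches in capitals. Ezh2 is at chr6:47595011-47595280 on the minus strand, Phf19 at chr2:34913957-34914226 on the minus strand, and Ezh1 at chr11:101226444-101226713 on the minus strand.
Ezh2: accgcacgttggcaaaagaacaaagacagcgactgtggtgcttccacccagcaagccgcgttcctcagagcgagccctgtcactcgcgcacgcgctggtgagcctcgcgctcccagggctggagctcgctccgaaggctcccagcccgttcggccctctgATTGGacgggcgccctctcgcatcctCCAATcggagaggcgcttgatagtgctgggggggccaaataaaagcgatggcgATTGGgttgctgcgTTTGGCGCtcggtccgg
Phf19: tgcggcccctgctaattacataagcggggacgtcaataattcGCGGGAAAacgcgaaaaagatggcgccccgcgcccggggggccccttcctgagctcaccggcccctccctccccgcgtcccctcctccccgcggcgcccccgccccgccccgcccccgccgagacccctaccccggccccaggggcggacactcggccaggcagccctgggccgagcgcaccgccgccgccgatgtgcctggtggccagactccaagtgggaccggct
Ezh1: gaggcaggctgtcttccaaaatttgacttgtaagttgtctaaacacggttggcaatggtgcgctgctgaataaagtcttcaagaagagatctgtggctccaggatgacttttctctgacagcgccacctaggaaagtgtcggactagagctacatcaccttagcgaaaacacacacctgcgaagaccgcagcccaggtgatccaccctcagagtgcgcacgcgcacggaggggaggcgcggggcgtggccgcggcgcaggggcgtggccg

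The letters searched on both strands were the E2F site (TTTCCCGC, TTTCGCGC, TTTGCCGC or TTTGGCGC), the CCAAT box (CCAAT) and the cell cycle homology region element (TTTGAA), which do not overlap one another in the printed stretches. Ezh2 had an E2F match 4 bases after the start and 3 CCAAT matches, 1 on the plus strand and 2 on the minus strand, which print as ATTGG. Phf19 had an E2F match on the minus strand, printed as GCGGGAAA, 208 bases before the start. Ezh1 had no match to any of the 3 motifs in its window. Among the other members Suz12 had the only E2F match, TTTCCCGC, 219 bases before the start. Unlike Ezh2 and Phf19, Suz12 was lower in number 4, by a mean log2 difference of -0.94. The relation of motif matches to levels was not tested. Over 32851 RefSeq promoters of the same 300 bases, 2.26% held an E2F match, 37.4% a CCAAT box and 17.9% a TTTGAA element. The 300-base windows of Ezh2, Phf19 and Ezh1 held 31, 38 and 23 CpG pairs, against a median of 7 over all promoters. In all, 9 of the 10 members had a promoter in that table. A match is a description of letters, and binding was not measured.

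Libraries held 14200745 to 21179300 estimated reads, so that even the lowest value of the least abundant member, Phf19 in active rescue 2, rested on 25 reads, and every other member had at least 191 reads in each library. Libraries of the same number resembled each other across the groups. For that reason 2 fits are given: edgeR's quasi-likelihood test without pairing, as set for the main test, and the same test with the number as a block, called paired below. A gene is called when its adjusted p (Benjamini-Hochberg over all 15284 genes) is under 0.05. Levels are CPM, counts scaled to a common library size with TMM factors, and changes are log2 fold changes with the standard error (SE) of the fit. Defining markers of granule neurons were present in all 20 libraries, Gabra6 at 34.7 to 275 CPM. The Purkinje marker Pcp2 was at 0 in all 20, but Calb1 and Car8, listed with it, were found in each, at 3.71 to 13 and 0.0547 to 0.704 CPM. The endothelial marker Cldn5 was at 0 in 8 libraries, whereas Pecam1 and Kdr were found in each, at 0.25 to 4.43 and 4.96 to 16.4 CPM. The number 4 libraries stood apart, with summed CPM over 14 granule neuron markers of 2350 to 3800, against 5730 to 10000 in the other 16, and summed CPM over 10 astrocyte markers of 8680 to 9760 against 1400 to 5410.

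Kdm6b, the gene targeted by the hairpin, was lower in shKdm6b than in control in all 5 same-numbered pairs, and remained well above 0. The gene lies at chr11:69398508-69413675 on the minus strand (GRCm38, GENCODE vM21), with 23 exons in its principal transcript. Control libraries 1 to 5 had 141, 171, 139, 81.2 and 187 CPM. The shKdm6b libraries had 99.4, 112, 89.3, 37.9 and 76.4 CPM. Both groups were lowest in number 4, and their ranges overlapped because control 4 lay below 3 of the knockdown libraries. Within pairs, shKdm6b held 70.5, 65.5, 64.3, 46.7 and 40.8% of the Kdm6b of its control, so numbers 4 and 5 showed the deeper reductions.

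Group means were 144 ± 40.5 CPM in control and 83.0 ± 28.3 CPM in shKdm6b (SD, n = 5). The paired fit gave a log2 fold change of -0.88 ± 0.21 (SE), with a 95% interval of -1.33 to -0.44 and an adjusted p of 0.0231 by edgeR's quasi-likelihood test. Of all genes tested, 4.14% were called in this comparison in the paired fit, 2.41% as lower and 1.72% as higher. Without pairing the value was -0.79 ± 0.43 and Kdm6b was not called (edgeR adjusted p = 1). In that fit none of the 10 members was called, none had an unadjusted p under 0.05, and 0.00654% of all genes were called. DESeq2 without pairing called none of the 10 either, and 0.419% of all genes. Leaving out the 4 number 4 libraries, the paired change was -0.84 with an edgeR adjusted p of 0.0567.

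In both rescues the counts under Kdm6b stood above those of shKdm6b in every pair, in dead rescue as in active rescue. Active rescue libraries 1 to 5 had 290, 312, 266, 73.2 and 119 CPM, a mean of 212 ± 109 (SD, n = 5). Dead rescue libraries had 272, 250, 192, 54.9 and 109 CPM, a mean of 176 ± 92.2. The human domain and the mouse gene are related in sequence, and reads from the introduced human transcript that were counted under mouse Kdm6b cannot be told apart from endogenous ones in a table of genes. The level in the rescues is therefore that of the counts, not of the endogenous transcript.

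**Figure D1:**
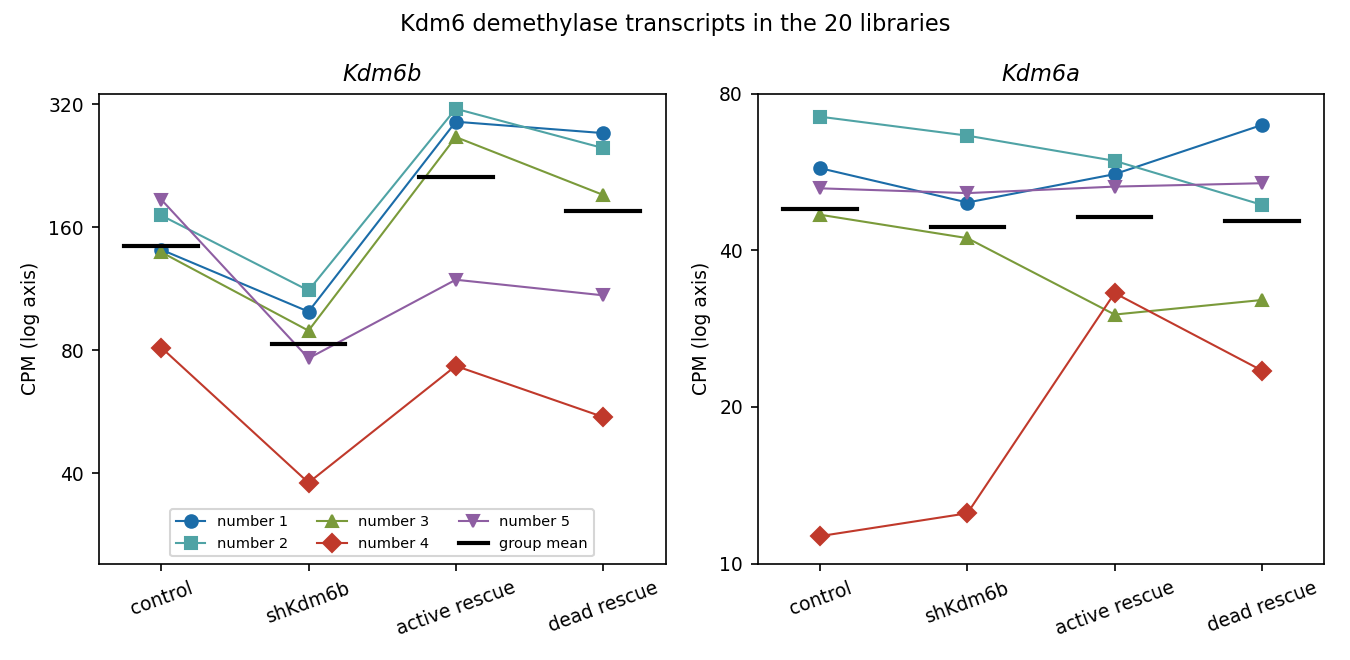
Kdm6b (left) and Kdm6a (right) in the 20 libraries, in CPM on a log axis, by group, with lines joining libraries of the same number and black bars at group means. Kdm6b falls from control to shKdm6b along all 5 lines and lies higher in the rescues, while the number 4 line lies lowest in both genes in control and shKdm6b.

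Relative to its own knockdown, Kdm6b in active rescue stood at 292, 280, 298, 193 and 155% for numbers 1 to 5. In dead rescue it stood at 273, 224, 215, 145 and 143%. The paired changes were 1.26 ± 0.21 (interval 0.82 to 1.71) for active rescue, with an edgeR adjusted p of 0.0865, and 0.98 ± 0.21 (interval 0.53 to 1.42) for dead rescue, with an edgeR adjusted p of 1. Neither passed the threshold, in comparisons where 0.00654% of all genes were called for active rescue and 0% for dead rescue. With numbers 1 to 3 alone, where the rises were largest, both were called, at 1.52 for active rescue (paired edgeR adjusted p = 1.07e-05) and 1.25 for dead rescue (0.000119). Those fits called 0.111% of genes for active rescue and 0.00654% for dead rescue, and in the second the 1 gene called was Kdm6b. Because the subset leaves out the numbers with the smallest rises, its calls depend on that choice and do not speak for all 5 numbers. DESeq2 with pairing called active rescue on all 20 libraries (1.26, adjusted p = 2.82e-05), with 0.15% of genes called.

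Against control, the numbers divided. Active rescue held 206, 183 and 192% of the Kdm6b of control in numbers 1 to 3, but 90.1 and 63.4% in numbers 4 and 5. Dead rescue held 192, 147 and 138% in numbers 1 to 3, and 67.6 and 58.4% in numbers 4 and 5. Over all 5 numbers the paired changes were 0.38 ± 0.21 (interval -0.06 to 0.83, edgeR adjusted p = 0.476) and 0.10 ± 0.21 (interval -0.35 to 0.54, adjusted p = 0.958), in comparisons where 1.96% and 1.18% of genes were called. Numbers 1 to 3 alone gave 0.94 and 0.67, both called in the paired edgeR fit (adjusted p = 0.000392 and 0.00521), where 2.97% and 0.936% of genes were called. That subset leaves out numbers 4 and 5, which lay below control, so its calls do not speak for all 5 numbers. Whether the numbers differ in this was not tested. Active rescue exceeded dead rescue in all 5 pairs, at 107, 125, 139, 133 and 109% of it. The paired difference of 0.29 ± 0.21 (interval -0.15 to 0.72, edgeR adjusted p = 1, with 0.00654% of genes called) did not pass the test, and the interval allows active rescue to hold up to 1.65 times the Kdm6b of dead rescue.

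Kdm6a, the X-linked paralogue of Kdm6b, did not pass the test in any of the 6 comparisons, and its level followed the replicate number. It lies at chrX:18162575-18279936 on the plus strand. Control libraries 1 to 5 had 57.5, 72.2, 46.8, 11.3 and 52.6 CPM. The shKdm6b libraries had 49.4, 66.4, 42.2, 12.5 and 51.5 CPM. Number 4 was lowest in both groups, far below the other 4 libraries. In active rescue the libraries had 56, 59.4, 30.1, 33.1 and 53 CPM, and in dead rescue 69.6, 48.9, 32.1, 23.5 and 53.8 CPM. There number 3 was lowest in active rescue and number 4 in dead rescue, closer to the rest than in the first 2 groups.

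The knockdown changed Kdm6a by -0.10 ± 0.23 in the paired fit, with an interval of -0.58 to 0.39 and an edgeR adjusted p of 0.918. The group means of 48.1 ± 22.6 and 44.4 ± 19.9 CPM (SD, n = 5) overlapped widely. A reduction of Kdm6a as large as the fitted one of Kdm6b lies outside that interval, and a rise of up to 0.39 lies within it. Across all 20 libraries Kdm6a spanned 6.40-fold, from control 4 to control 2.

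Because Kdm6a is X-linked, the sex-linked genes are set beside it. Xist, the RNA of the inactive X, had 905 to 1680 CPM in numbers 1 and 2, 193 to 349 in number 3, 297 to 659 in number 4 and 500 to 535 in number 5. Uty, the Y-linked paralogue, had 10.1 to 18 CPM in numbers 1 and 2, 17.7 to 35 in number 3, 3.77 to 8.74 in number 4 and 21.3 to 27.7 in number 5. Ddx3y, a Y-linked RNA helicase, likewise had 24.6 to 38.3 CPM in numbers 1 and 2 and 52 to 68.4 in numbers 3 and 5. Xist and Y-linked reads were thus present in every library, in proportions that differed by number. Kdm6a averaged 58.1 and 61.7 CPM in numbers 1 and 2, 37.8 in number 3, 20.1 in number 4 and 52.7 in number 5. The part of sex in its level was not tested. None of the 5 sex-linked genes was called between groups in any comparison, Uty being lowest in p after knockdown (-0.35, edgeR adjusted p = 0.523).

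Neither methyltransferase gene, Ezh1 or Ezh2, was called in any comparison, and their levels parted by number: Ezh1 was lowest in number 4 in all 4 groups, and Ezh2 was low in numbers 1 and 2. Ezh1 lies at chr11:101191115-101226463 on the minus strand. Its control libraries had 44.5, 52, 45.5, 31.7 and 47.2 CPM. Its shKdm6b libraries had 49, 43.7, 37.1, 23 and 38.5 CPM. The knockdown was lower in numbers 2 to 5 and higher in number 1. Active rescue had 42.2, 40.5, 37.7, 31 and 44.4 CPM and dead rescue 40.4, 42.5, 38.4, 28.3 and 43.3 CPM, in each case below the same-numbered control in 5 of 5 pairs.

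For Ezh1 the paired change after knockdown was -0.23 ± 0.09 (interval -0.41 to -0.04, edgeR adjusted p = 0.209), from a mean of 44.2 ± 7.55 to 38.3 ± 9.76 CPM (SD, n = 5). Without shKdm6b 1, the library that lay above its control, it was -0.33 and passed (paired edgeR adjusted p = 0.0437). That was the only 1 of 10 fits leaving out 1 library that passed, with adjusted p up to 0.464. It drops the library that went the other way, and its share of all genes called is not given here. Numbers 1 to 3 alone gave -0.13 (paired edgeR adjusted p = 0.643). The rescues were -0.17 ± 0.09 and -0.19 ± 0.09 against control, with edgeR adjusted p of 0.457 and 0.439. These 3 comparisons share their control libraries. Against shKdm6b the rescues differed by 0.06 and 0.03, so neither returned Ezh1 toward control beyond the error.

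Ezh2 lies at chr6:47530139-47595341 on the minus strand. Its control libraries had 18.3, 14.3, 27.4, 25.4 and 23.5 CPM. Its shKdm6b libraries had 15.9, 14.2, 27.4, 31.5 and 22.3 CPM. In both groups numbers 1 and 2 were low and numbers 3 to 5 high, without overlap. Active rescue had 14.4, 10.3, 24.9, 29.5 and 24.9 CPM and dead rescue 16.1, 20, 26.8, 26.3 and 25.6 CPM, divided in the same way. The knockdown changed Ezh2 by 0.00 ± 0.13 (interval -0.26 to 0.27 in the paired fit). Active rescue was below dead rescue in 4 of 5 pairs, a change of -0.21 that was not called.

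Compared per kilobase of the principal transcript, Ezh1 was the more abundant methyltransferase transcript in numbers 1 and 2, and Ezh2 in number 4. The Ezh1 to Ezh2 ratio in control was 1.62, 2.42, 1.10, 0.83 and 1.34 for numbers 1 to 5. In shKdm6b it was 2.05, 2.05, 0.90, 0.485 and 1.15. Over the 4 groups the ratio averaged 1.82, 2.12, 0.991, 0.682 and 1.20 for the 5 numbers, whereas the group means were 1.46 ± 0.61 in control, 1.33 ± 0.701 in shKdm6b, 1.49 ± 0.777 in active rescue and 1.17 ± 0.376 in dead rescue (SD, n = 5). The groups overlapped, and the numbers spanned more than the groups. These ratios depend on the transcript length used: over all exons of each gene, control Ezh1 is 7.27 instead of 10.5 CPM per kilobase and Ezh2 7.36 instead of 7.81. With either length numbers 1 and 2 stay above a ratio of 1 and number 4 below it, but number 5, at 1.12 to 1.34 by principal transcript, is at 0.823 to 0.978 over all exons.

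**Figure D2:**
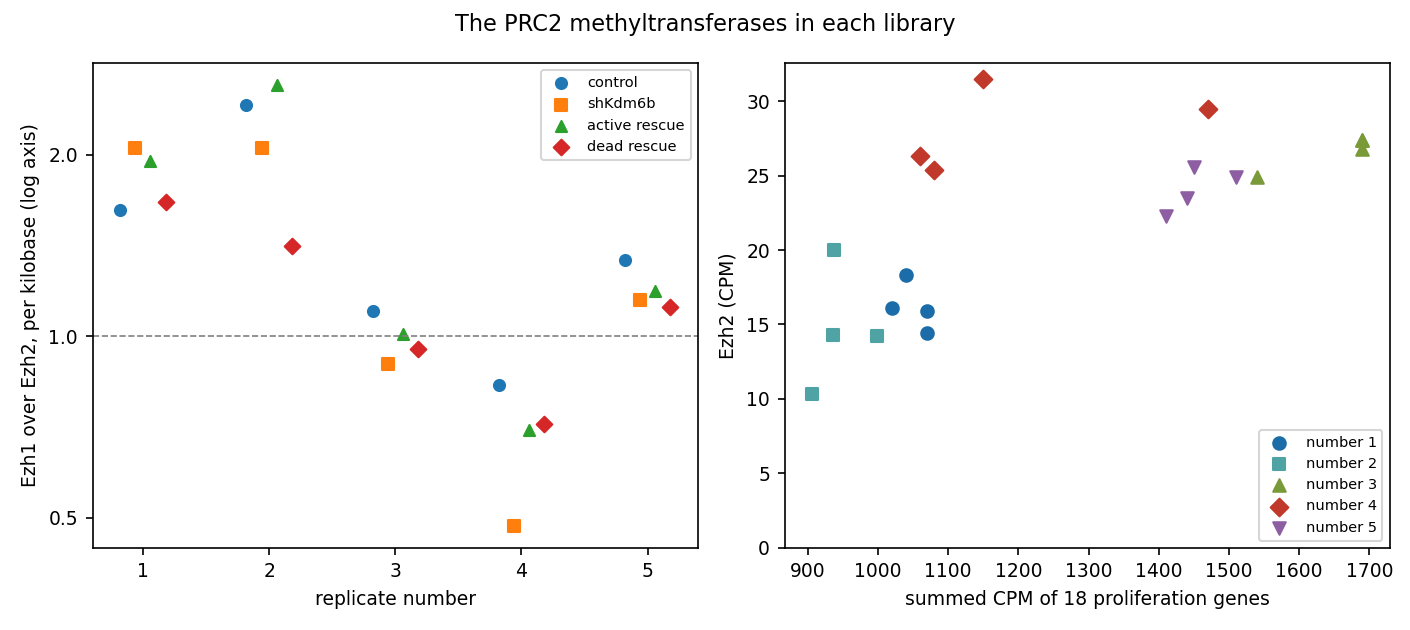
Left, the ratio of Ezh1 to Ezh2 in CPM per kilobase (log axis) for each library by replicate number, with a dashed line at 1. Right, Ezh2 in CPM against the summed CPM of 18 proliferation genes, 1 point per library, coloured by number. All number 4 libraries lie below a ratio of 1 and all number 1 and 2 libraries above it. Number 4 has Ezh2 of 25.4 to 31.5 CPM at proliferation sums of 1060 to 1470, and numbers 1 and 2 have 10.3 to 20 CPM at sums of 906 to 1070.

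Transcripts of dividing cells were still present on day 7 after AraC, and their summed level, like that of Ezh2, was lower in numbers 1 and 2 than in numbers 3 and 5; number 4 overlapped with number 1 in the sum and not in Ezh2. The summed CPM of 18 proliferation genes, which do not include Ezh2, was 1020 to 1070 in number 1, 906 to 998 in number 2, 1540 to 1690 in number 3, 1060 to 1470 in number 4 and 1410 to 1510 in number 5. In number 4 the genes of the list did not move together. The replication genes Mcm3, Mcm5, Mcm6 and Pcna reached their highest values there, Mcm3 at 43.3 to 51.3 CPM against 11.5 to 43.8 in the other numbers, and Mcm6 at 54.6 to 63.4 against 13.7 to 60.4. Cdk1, Tyms, Birc5 and Aurkb also peaked there. Mcm2, Rrm2, Mki67, Top2a, Ccnb1, Ccna2 and Bub1 peaked in other numbers. Rrm2 was at 17.3 to 51 CPM in number 4 against 8.37 to 71.7, and Top2a at 53.5 to 79.4 against 14.6 to 137. Ccnd1 and Ccnd2, the cyclins with the largest values in the sum, were at 283 to 332 and 141 to 560 CPM in number 4, against 212 to 576 and 248 to 579. Mki67, a marker of cycling cells, ranged from 12 to 121 CPM, whereas Atoh1, the transcription factor of granule cell progenitors, stayed at or below 0.536 CPM and was at 0 in 5 libraries. Ezh2 averaged 16.2 and 14.7 CPM in numbers 1 and 2, 26.6 in number 3, 28.2 in number 4 and 24.1 in number 5. The groups overlapped in the proliferation sum, and its part in the level of Ezh2 was not tested.

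Eed and Suz12, the scaffold subunits without which the complex does not assemble, behaved differently from each other. Eed, which reads the H3K27me3 mark, lies at chr7:89954654-89980983 on the minus strand. It was the steadiest member, from 26.3 CPM in active rescue 1 to 37 CPM in control 3, a span of 1.40-fold over 20 libraries. Its group means were 32.1 ± 3.41 in control, 33.4 ± 1.95 in shKdm6b, 32.2 ± 4.09 in active rescue and 32.9 ± 3.7 CPM in dead rescue (SD, n = 5). The knockdown changed it by 0.06 ± 0.07, with an interval of -0.09 to 0.21.

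Suz12 lies at chr11:79993106-80034123 on the plus strand. Its control libraries had 72.9, 82.7, 71.8, 28.2 and 76.7 CPM. Its shKdm6b libraries had 58.6, 70.5, 57.4, 30.8 and 54.5 CPM. Outside number 4 the knockdown was lower in every pair, and in number 4, where both were far below the rest, it was slightly higher. Active rescue had 66.9, 68.3, 56, 36.7 and 65.1 CPM and dead rescue 75.4, 57.8, 49.6, 41.3 and 68.9 CPM, between or around these. The paired change after knockdown was -0.26 ± 0.12 (interval -0.52 to 0.00, edgeR adjusted p = 0.338). Without the number 4 libraries it was -0.36 ± 0.10 and passed (paired edgeR adjusted p = 0.0461), in a fit that called 6.5% of genes. With numbers 1 to 3 alone it was -0.28 and did not (0.298), with 2.91% of genes called.

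Jarid2, the accessory subunit that binds nucleosomes and helps place PRC2 on its targets, lies at chr13:44729474-44921643 on the plus strand and had the highest mean CPM per kilobase of the PRC2 members in control. Its control libraries had 210, 289, 187, 83.1 and 197 CPM. Its shKdm6b libraries had 300, 332, 192, 71.3 and 256 CPM. The knockdown was higher in numbers 1, 2, 3 and 5 and lower in number 4. Active rescue had 255, 313, 192, 119 and 215 CPM, above control in 5 of 5 pairs, and dead rescue had 261, 285, 179, 119 and 210 CPM. The paired change after knockdown was 0.20 ± 0.12 (interval -0.06 to 0.46, edgeR adjusted p = 0.51). Without the number 4 libraries it was 0.26 ± 0.07 and passed (0.0421), and with numbers 1 to 3 alone it was 0.26 and did not (0.208). Thus Suz12 and Jarid2 were the 2 members called when number 4 was left out, in opposite directions, while Kdm6b was then not called.

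Aebp2, the partner of Jarid2 in the same PRC2 variant, lies at chr6:140622663-140678472 on the plus strand and averaged 112 ± 24.8 CPM in control and 124 ± 20.6 in shKdm6b (SD, n = 5). Its paired change was 0.16 ± 0.09 (interval -0.02 to 0.35, edgeR adjusted p = 0.426). Mtf2, a Polycomb-like subunit, lies at chr5:108065674-108109004 on the plus strand and averaged 42.7 ± 13 and 40.2 ± 13.1 CPM. Mtf2 was lower after knockdown in 5 of 5 pairs, but only by -0.09 ± 0.11 (interval -0.32 to 0.13).

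Phf19, the other Polycomb-like subunit, lies at chr2:34893757-34914026 on the minus strand. It had the lowest mean CPM per kilobase of the 10 members in each group, and the widest span over the 20 libraries, 11.8-fold. In control 4, though, Phf19 at 2.64 CPM per kilobase lay above Kdm6a at 1.91. Control libraries 1 to 5 had 3.77, 2.8, 5.31, 9.86 and 6.25 CPM. The shKdm6b libraries had 2.68, 1.81, 5.89, 13.5 and 5.33 CPM. Number 4 was highest and number 2 lowest in both. Active rescue had 3.41, 1.24, 4.55, 14.6 and 5.87 CPM and dead rescue 2.92, 1.46, 6.98, 10.6 and 3.78 CPM, with the same highest and lowest numbers. The paired change after knockdown was -0.14 ± 0.21, with an interval of -0.58 to 0.30. Like Ezh2, Phf19 was lower in every library of numbers 1 and 2 than in any of number 4.

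**Figure D3:**
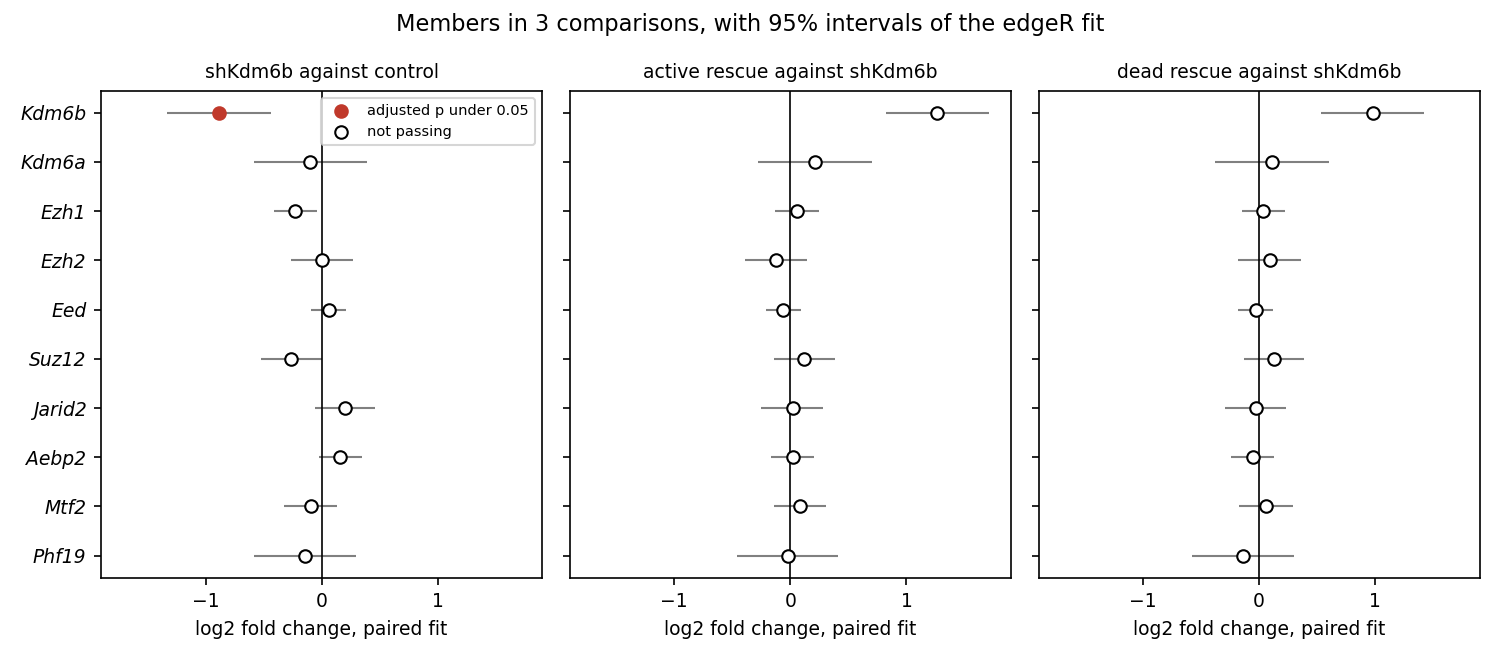
Paired log2 fold changes of the 10 members in 3 comparisons, with 95% intervals; filled points passed an adjusted p of 0.05. Kdm6b after knockdown, at -0.88, is the single filled point of the 3 panels, and the intervals of the other 9 members lie between -0.58 and 0.70.

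The 9 members other than Kdm6b gave no call in any of the 6 comparisons, by edgeR with or without pairing or by DESeq2 with or without pairing. In the order of shKdm6b, active rescue and dead rescue as they are compared with control, DESeq2 called 0.419, 0.19 and 0.111% of all genes without pairing and 6.18, 4.08 and 2.98% with it. Against shKdm6b or between the rescues it called 0% without pairing, and with pairing 0.15% for active rescue, 0% for dead rescue and 0.0196% for active against dead. By edgeR without pairing none of the 9 had an unadjusted p under 0.05 in any comparison; with pairing only Ezh1 did, in shKdm6b and in dead rescue against control. Paired changes of the 9 after knockdown ran from -0.26 to 0.20, with 4 above and 5 below 0. For active rescue against shKdm6b they ran from -0.12 to 0.21, and for dead rescue against shKdm6b from -0.14 to 0.13. Active against dead rescue gave -0.21 to 0.12, active rescue against control -0.17 to 0.22 and dead rescue against control -0.28 to 0.17. The 95% intervals of these values reached from -0.73, for Phf19, to 0.70, for Kdm6a, the least precise members. The median over the 8 PRC2 members after knockdown was -0.04, against 0.01 over all genes. The 2 groups of libraries overlapped for each of the 10 members in each comparison, while 0.857% of all genes did not overlap between shKdm6b and control. The same share was 0.667% for active rescue and 0.51% for dead rescue against control, 0.0523% for active rescue and 0.0458% for dead rescue against shKdm6b, and 0.0523% between the rescues.

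The replicate number carried most of the variation of the members. The sum of squares of log2 CPM over the 20 libraries was divided into a part between groups, a part between numbers and a rest. For Kdm6b these were 30.7, 57.4 and 11.9%. For Kdm6a the group part was 0.976% and the number part 79%, and for Jarid2, Mtf2 and Phf19 the number part was 90.6, 89.7 and 91.2%. Ezh1 had the next largest group part after Kdm6b, 10.1%. The medians over all genes tested were 4.26% for the group and 71.7% for the number, so a large number part is the rule among genes in these libraries.

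**Figure D4:**
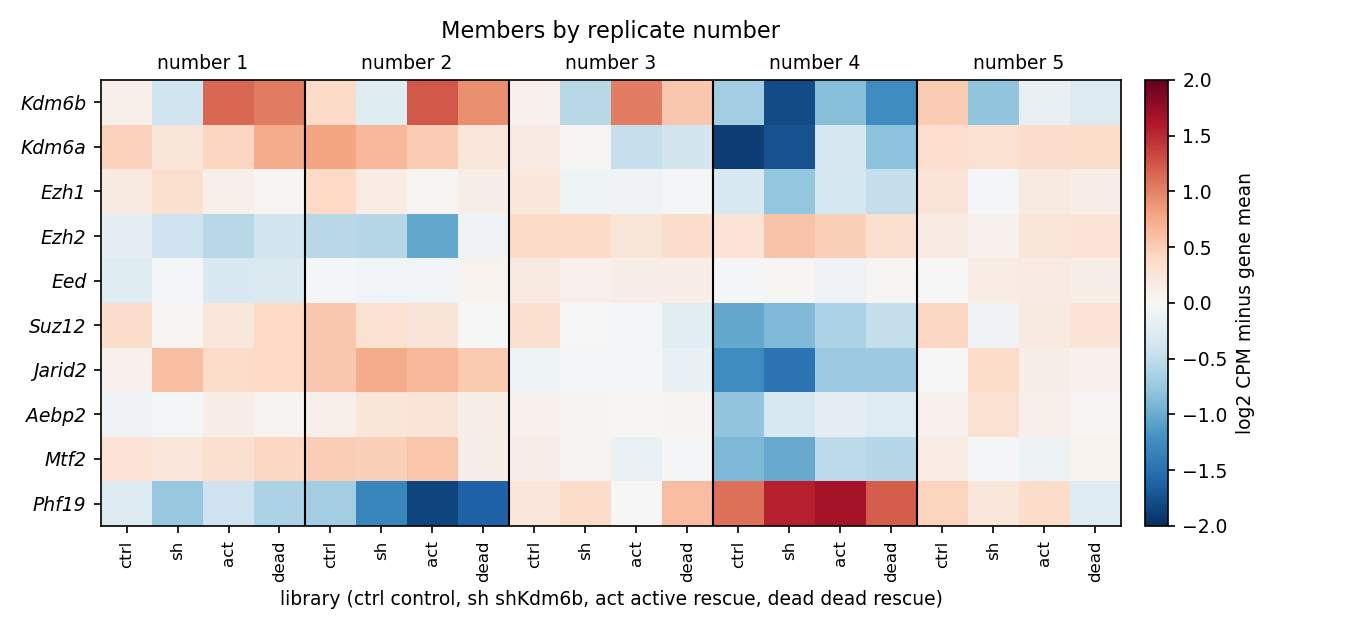
Log2 CPM of the 10 members minus each gene's mean, in the 20 libraries ordered by replicate number and, within a number, control, shKdm6b, active rescue and dead rescue. Within number 4 Phf19 and Ezh2 are high and Kdm6b, Kdm6a, Suz12, Jarid2 and Mtf2 low, in all 4 groups, whereas Eed is near its mean.

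In number 4 each member other than Eed departed from its mean over the other numbers in the same direction in all 4 groups, and over all genes the departure moved with transcript length. Single libraries could still overlap: Ezh2 was higher in control 3 than in control 4, at 27.4 and 25.4 CPM, and Kdm6a lower in active rescue 3 than in active rescue 4, at 30.1 and 33.1 CPM. Kdm6b was lower there than in the other numbers by a mean log2 difference of -1.44 over the 4 groups, Kdm6a by -1.49, Jarid2 by -1.31, Suz12 and Mtf2 by -0.94 each, Ezh1 by -0.60 and Aebp2 by -0.48. Eed differed by -0.02, Ezh2 by 0.52 and Phf19 by 1.73. Over all tested genes with a length, 92.3% of them, the median difference over 5 equal bins went from 0.60 in the bin with the shortest principal transcripts through 0.23, -0.04 and -0.30 to -0.71 in the bin with the longest. The 3 members of the longest bin, Kdm6b, Kdm6a and Jarid2, lay below its median. Suz12, Mtf2, Ezh1 and Aebp2 lay below that of bin 4, and Phf19, of the same bin, far above it. Eed, of bin 2, lay below its median and Ezh2, of bin 3, above it. The part of transcript length or of the lower granule neuron markers in these differences was not tested.

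**Figure D5:**
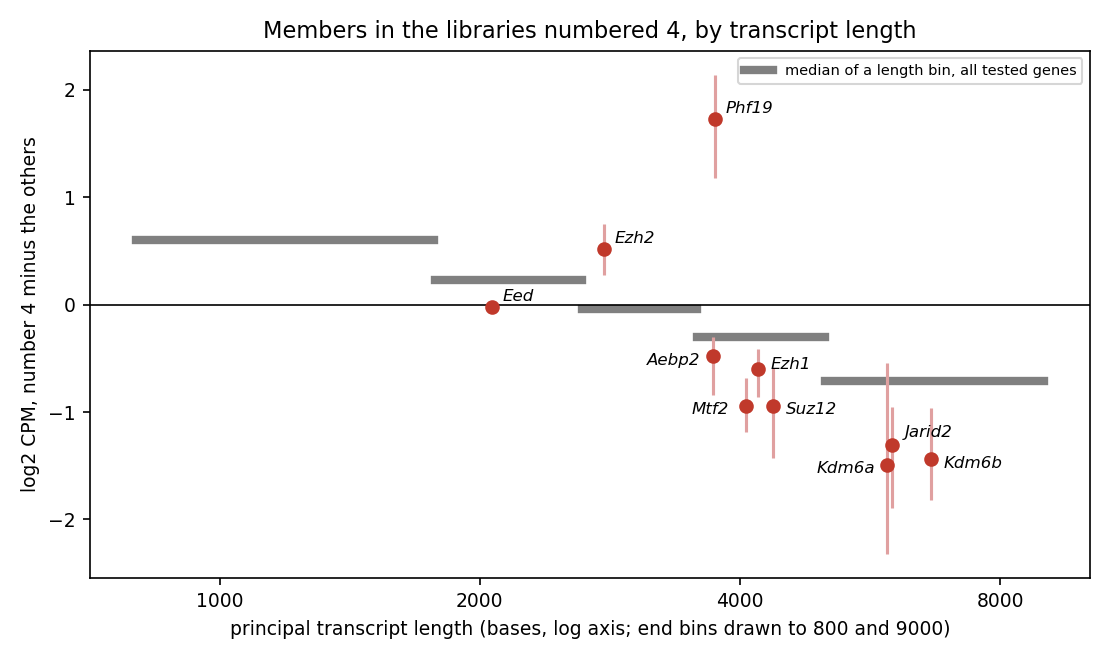
For each member, the mean log2 CPM difference of number 4 from the other numbers against principal transcript length (log axis); vertical lines span the 4 groups and grey bars are medians of 5 equal bins of the tested genes by length. The grey bars step down from 0.60 to -0.71 with length, and Phf19 at 1.73 and Ezh2 at 0.52 lie above the medians of their bins.

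Per kilobase of principal transcript, the control order was Jarid2 at 32.2 ± 12.3, Aebp2 at 30.0 ± 6.64, Kdm6b at 21.6 ± 6.08, Eed at 15.5 ± 1.66, Suz12 at 15.2 ± 4.99, Ezh1 at 10.5 ± 1.80, Mtf2 at 10.5 ± 3.2, Kdm6a at 8.12 ± 3.82, Ezh2 at 7.81 ± 1.93 and Phf19 at 1.50 ± 0.73 CPM per kilobase (SD, n = 5). Of neighbours in this order only Ezh2 and Phf19 had control ranges apart. Jarid2 exceeded Aebp2 in 2 of 5 control libraries and Eed exceeded Suz12 in 2 of 5. Aebp2 would stand at 13.7 rather than 30.0 if all its exons were counted in the length, which places it below Kdm6b, Eed and Suz12. Kdm6b thus had more transcript per kilobase than Kdm6a, by a mean ratio of 3.30 ± 1.78 in control and 1.84 ± 0.531 in shKdm6b.

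Other genes of the same chromatin pathways were counted by list. Of 5 further PRC2 subunit genes tested, none was called after knockdown in the paired edgeR fit; Rbbp7, a histone-binding subunit, came closest, at 150 ± 17.9 against 178 ± 13.7 CPM in control (-0.25 ± 0.07, adjusted p = 0.0844). Without number 4 Rbbp7 was called lower (-0.28, adjusted p = 0.0189), beside Suz12. Of the 9 MLL3/MLL4 COMPASS genes that work with KDM6A, none was called, Pagr1a giving -0.47 ± 0.20 (adjusted p = 0.267). Of 24 genes of Polycomb repressive complex 1, which binds H3K27me3, 1 rose and none fell: Cbx8, a reader of the mark, went from 11.7 ± 0.74 to 15.9 ± 2.61 CPM (0.43 ± 0.11, adjusted p = 0.0445), a call lost without number 4 (adjusted p = 0.0923). None of 10 genes of the PR-DUB deubiquitinase and none of the 18 tested of 20 other histone lysine demethylases was called, Phf8 giving -0.27 (adjusted p = 0.388). Set against the 4.14% of all genes called, a single call in these lists is no more than the background share. In the other 5 comparisons no gene of these lists was called in the paired fit on all libraries. Without number 4, 2 PRC1 genes were called higher in active rescue against control, in a fit whose share of all genes called is not given here. Of PRC1 genes, Rybp gave 0.37 ± 0.11 in active rescue against control (96.4 ± 19.3 and 75.6 ± 17.8 CPM, adjusted p = 0.108), and the corepressor Bcor 0.47 ± 0.14 in active rescue against shKdm6b (50.7 ± 6.1 and 38.2 ± 11.2 CPM, adjusted p = 0.734).

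Genes whose profile over the 20 libraries was most like a member's were sought among 11663 genes, as a description, since libraries of a number are not independent and share their departures. For Kdm6b the 5 closest were Dnajc18, Hectd3, Tox4, Alg6 and Edc4, with Pearson r of 0.864 to 0.835 over 20 libraries. Without the number 4 libraries these fell to between 0.631 and 0.756, so part of the likeness is number 4 itself. For Kdm6a they were Camsap2, Zmym2, Cpeb4, Ubr3 and Kbtbd7, at 0.99 to 0.988, and still 0.949 to 0.966 over the other 16 libraries. For Ezh2 they were Tcf19, Msx1, Thbs3, Kif22 and Gjc1, at 0.953 to 0.947, and 0.942 to 0.965 over the other 16.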

How the data were processed

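The authors quantified 20 libraries, 5 in each of 4 groups. Expected counts per gene, estimated from reads, were deposited as 1 table, whose name gives salmon; the submitters' processing notes name mm10 as the build. The salmon version and the annotation were not stated in the sources used here. Values are unscaled: totals were 14200745 to 21179300, and 7.03 to 11.2% of values were not whole.

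Counts were rounded, filtered with filterByExpr (9127 of 24411 genes removed) and TMM-scaled. Groups were compared in 6 pairs with edgeR 4.0.16 (R 4.3.3) quasi-likelihood tests on all 20 libraries, two-sided, Benjamini-Hochberg threshold 0.05. Log2 CPM used a prior count of 1. The fit had no block. The replicate numbers paired the samples: deviations from group means correlated in all 30 same-numbered pairs (r 0.361 to 0.881, limit 0.1), against a median of -0.205 in 120 others, and 20 of 20 libraries were closest to a library of the same number. What the number marks is not stated by the labels, and the pairing rests on this check, so a fit with the number as block is given beside it. The biological coefficient of variation was 0.392 without and 0.179 with the block, on 16 and 12 residual degrees of freedom. DESeq2 1.42.0, RLE scaling, no filter, number 4 left out, numbers 1 to 3 alone and each library left out were alternatives. The script was tested on simulated data.

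Named genes were the members, the 5 profiles most like Kdm6b, Kdm6a and Ezh2 (mean of at least 5 CPM, no predicted or clone names), and from each list the called genes or the one with the smallest p. Members and lists were chosen with earlier results of these data known. Transcript lengths are from GENCODE vM21, promoters from RefSeq on GRCm38.p6.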

Additional observations from a re-analysis of the deposited data

Results flagged for a closer look

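Each member's CPM was examined for a value apart from the other 4 of its group (gap to the nearest value over the whole range above 0.71), a rule that flags about 5% of groups by chance. Of 40 member groups, 4 held such a value, 3 of them in number 4. The share of all genes flagged by this rule was not counted, so these values do not show an excess among the members. Suz12 was 28.2 CPM in control 4, against 71.8 to 82.7 in the other control libraries. Aebp2 was 68.6 CPM in control 4, against 113 to 127, and 99 CPM in dead rescue 4, against 121 to 128. Eed was 26.5 CPM in dead rescue 1, against 33.1 to 35.7 in the other dead rescue libraries. Suz12 is the member whose change after knockdown was called when number 4 was left out in the paired fit (-0.36, edgeR adjusted p = 0.0461), together with Jarid2.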

How the results depend on the processing

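Without pairing, no member was called in any comparison over all 20 libraries. After knockdown 1 member was called with the replicate block, with DESeq2 and the block, and with numbers 1 to 3 alone and the block, and 2 were called with number 4 left out and the block. Leaving out 1 library gave 0 to 1 called members in this comparison and in active rescue against shKdm6b. For active rescue against shKdm6b 1 was called by DESeq2 with the block and with numbers 1 to 3 alone, with or without the block. With numbers 1 to 3 and the block 1 was also called in dead rescue against shKdm6b and in both rescues against control. Numbers 1 to 3 had the largest Kdm6b rises in the rescues, so the rescue calls in that subset do not speak for all numbers. For all genes the block moved the calls after knockdown from 1 to 632, DESeq2 gave 64 without and 944 with the block, and leaving out number 4 with the block gave 990.

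Kdm6b after knockdown was -0.88 with the replicate block, -0.90 with DESeq2 and the block (adjusted p = 0.00105) and -0.58 with numbers 1 to 3 and the block (0.00501). Leaving out 1 library gave -1.02 to -0.65 with the block and -0.97 to -0.63 without. In the paired fit the call was lost without control 4 or 5 or without shKdm6b 1, 3 or 5 (edgeR adjusted p 0.0163 to 0.0937 over the 10 libraries). Active rescue against shKdm6b was 1.26 with DESeq2 and the block and 1.52 with numbers 1 to 3, with and without the block. With 1 library left out it was 1.17 to 1.41 with the block and 1.17 to 1.57 without. It was called in the paired fit without active rescue 5 (1.41, edgeR adjusted p = 0.0411). Numbers 1 to 3 with the block gave 1.25 for dead rescue against shKdm6b. Against control they gave 0.94 for active rescue and 0.67 for dead rescue. With 1 library left out, dead rescue against control ran from -0.05 to 0.32 with the block and 0.08 to 0.52 without.

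After knockdown the direction of 6 members near 0 changed with the setting. Ezh2, 0.03 without pairing, was -0.01 with DESeq2 and the block, -0.09 and -0.10 without number 4 (without and with the block), and -0.06 and -0.07 with numbers 1 to 3. Phf19, 0.06 without pairing, was -0.14 with the block, -0.15 with DESeq2 and the block, -0.23 and -0.32 without number 4, and -0.19 and -0.31 with numbers 1 to 3. The ranges with 1 library left out are taken over the fits with and without the block together. They were -0.15 to 0.13 for Ezh2, -0.53 to 0.34 for Phf19 and -0.39 to 0.10 for Kdm6a. For Eed the range was -0.01 to 0.11, for Aebp2 -0.01 to 0.21 and for Mtf2 -0.28 to 0.06. Suz12 and Jarid2 were called without number 4 in the paired fit (-0.36 and 0.26), and Ezh1 without shKdm6b 1 (-0.33). The cause was not tested. For the other 45 member values in the other 5 comparisons, 1305 evaluations gave 0 calls and 255 changes of sign, 183 of them with 1 library left out. Phf19 rested on the fewest reads, 25 to 299 a library; what depth cost each member was not compared.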

Other observations

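Marker lists of the cell types a cerebellar culture can hold were counted in the same paired fit, in which 4.14% of all genes were called after knockdown, 2.41% lower and 1.72% higher. After knockdown 1 of 14 granule neuron markers was called higher and 3 lower, 1 of 17 tested proliferation genes lower, 1 of 12 microglial and 1 of 10 oligodendrocyte lineage markers lower, and none of 10 astrocyte markers or 10 fibroblast and vessel markers. Of 10 tested markers of GABAergic interneurons and Purkinje cells 1 was called higher and 2 lower. The summed markers differed by number: fibroblast and vessel markers summed to 18700 to 24400 CPM in number 5 and to 3570 to 4080 CPM in number 2, and the ranges of the 4 groups overlapped in each list. The relation of these sums to the members was not tested.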
